A study of Mus musculus with 12 samples.

Results

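The libraries described here are the 6 of the series' 12 that were made from punches of the ventral tegmental area (VTA), picked by the region and housing in their titles. They compare 3 libraries from early socially isolated mice with 3 from group-housed mice. All mice carry the strain label C57BL/6, and no transgene, mutation or drug is labelled in either group. The design text gives the VTA mice as female and the remaining 6 libraries, of BLA (3 isolated, 3 group-housed), as male. The tissue label of every library is cerebrum, so VTA stands in the titles alone. The sources used here do not give age, the length of the isolation or the number of animals in a library. Whether a group's 3 libraries stand for 3 different animals is not stated either, and p-values therefore measure the spread between libraries alone, be it biological or technical. Trizol served to extract the RNA, of which 1 ug of total RNA per sample went into ribosomal depletion and stranded library preparation.

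The VTA is a midbrain nucleus whose dopamine neurons project to the striatum, the amygdala and the frontal cortex and take part in reward, motivation and social behaviour. These neurons make dopamine from tyrosine through tyrosine hydroxylase (Th) and aromatic amino acid decarboxylase (Ddc), load it into vesicles through Slc18a2 and take it back up through the transporter Slc6a3. They lie among GABA and glutamate neurons, astrocytes, myelinating oligodendrocytes and vessels, and a punch can also take in the hypothalamus, raphe, interpeduncular nucleus, ventricle lining and meninges that surround the area. In such bulk RNA, fewer cells of a type and less RNA per cell cannot be told apart.

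Total counts ran from 40991098 to 69270051 per VTA library. Between 0.198% and 1.57% of them fell on Lars2, CT010467.1 and Gm15564, 3 loci that gather ribosomal RNA reads and were left out of the totals. Replicates differed by more than sampling noise in every pair. The libraries did not divide cleanly by housing. On the first principal component of log2 CPM, which held 49.6% of the variance, isolated libraries 1 and 3 lay at 54.2 and 77.7, and the 3 group-housed libraries between -47.1 and -32.7. Isolated library 2 lay at -14.7, closer to the group-housed libraries than to the other isolated ones.

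The punches expressed the genes of dopamine neurons at high levels. As a level per length (counts per kilobase of exon, scaled as for TPM), Slc6a3 ranged from 293 to 615, Th from 222 to 477, Ddc from 103 to 202 and Slc18a2 from 87.6 to 197 over the 6 libraries. Aldh1a1, which clears the aldehyde formed from dopamine, ranged from 189 to 339.9. Among transcription factors that set up and keep dopamine neurons, Nr4a2 ranged from 25.5 to 52.8, Lmx1a from 14.5 to 33.6 and Foxa2 from 4.84 to 11.4, all far below the enzymes. Pitx3, another defining factor, ranged from 1.53 to 4.14. None of the 6 libraries was at 0 for Th, Slc6a3, Slc18a2, Ddc or Pitx3, the markers that define dopamine neurons. The glutamate transporter gene Slc17a6 ranged from 199 to 424 and Gad1, which makes GABA, from 44.0 to 137.

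On the same scale per length, 14305 protein-coding genes had a mean level of at least 1, 13512 of them at least 1 in every library, and 42 had a mean of at least 1000. The 15 genes with the highest mean held 9 short noncoding RNAs besides Malat1, led by Rn7sk, the RNA that holds back transcription elongation, at 187462 to 233433. The others of these 9 were Bc1, Gm22513, Rn7s2, Rn7s1, Gm23935, Rny1, Gm22442 and Gm22009, and several of them have near-identical copies in the genome, so that their values are uncertain. Coding genes among the 15 included Sparcl1, a matrix protein of astrocytes and neurons (3259 to 4370.2), the translation factor gene Eef1a1 (3278 to 3779), Cpe, which trims neuropeptides (2175 to 3021), and the lipid carrier gene Apoe (2189 to 2629). Levels of Eef1a1 and Apoe lay close together across libraries, whereas Bc1 ranged from 4480.1 to 16072 and the Y RNA gene Rny1 from 993 to 5946. The highest 3 values of Rny1, 5448, 1908 and 5946, were those of isolated libraries 1, 2 and 3.

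To show what sets the VTA punches apart within the series, group-housed VTA was set against group-housed BLA. Region and sex change together in this contrast and cannot be told apart. With edgeR and Benjamini-Hochberg adjustment, 4559 of 25232 genes were called higher in VTA (18.1%) and 4811 lower (19.1%). Counting only differences of at least 1 on the log2 scale, 2274 were higher and 1900 lower. Among the 12 called genes with the largest difference above 0 and at least 10 CPM in VTA was the midbrain factor Pax7, with a mean of 10.3 CPM (counts scaled to library size by TMM factors) in VTA and 0 counts in all 3 BLA libraries. Slc6a3, at 391 ± 166 CPM against 0.617 ± 0.197 CPM (SD, n = 3 each), differed by 9.26 (SE 0.40) on the log2 scale. Chrna6, a nicotinic receptor subunit of dopamine neurons, differed by 8.80 (SE 0.52) and the factor Ebf3 by 6.26 (SE 0.19). Lmx1a, a dopamine neuron factor at 16.7 CPM in VTA and 0.0194 CPM in BLA, C130021I20Rik, Cnpy1 and Ttc6 were also among the 12, as was Xist, which only female cells transcribe at a high level.

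Also among the 12 were genes of tissue beside the VTA: the hypothalamic peptide gene Pmch, which ran from 3.26 to 58.3 CPM in the 3 group-housed VTA libraries, and the serotonin transporter gene Slc6a4, which ran from 0.0331 to 48.8 CPM. On the lower side, Slc17a7, the vesicular glutamate transporter of cortical neurons, had a mean of 4.31 CPM in VTA against 906 CPM in BLA, and the cortical factor Tbr1 had 0.572 against 66.6 CPM. Ankrd63, Igfn1, Rtn4rl2, A830036E02Rik and Sh3rf2 followed, beside the Y-linked genes Uty, Ddx3y, Eif2s3y and Kdm5d.

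**Figure D1:**
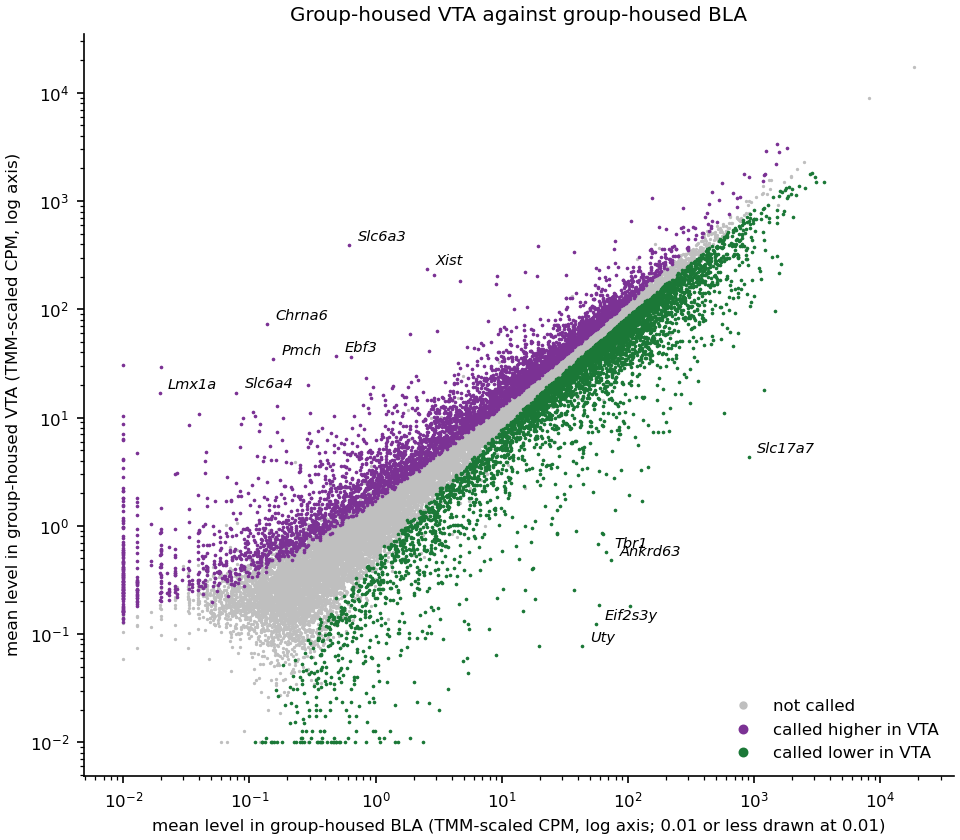
Mean level of each tested gene in group-housed VTA (vertical axis, CPM, TMM-scaled over all 12 libraries, log axis) against group-housed BLA (horizontal axis, same unit), 3 libraries each. Purple and green points were called higher and lower in VTA, and Slc6a3 stands at 391 CPM in VTA against 0.617 CPM in BLA.

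The comparison of housing asked which genes of the female VTA differ after early isolation. Postn, which encodes periostin, a secreted matricellular protein that binds collagen and integrins, rose in isolated VTA. Its levels were 24.2, 25.8 and 25.7 CPM in isolated libraries 1, 2 and 3 and 11.8, 11.2 and 12.1 CPM in group-housed libraries 1, 2 and 3. All 3 isolated libraries thus lay at about the same level and above every group-housed one. The means were 25.2 ± 0.902 and 11.7 ± 0.452 CPM (SD, n = 3 per group), which is a log2 difference of 1.11 (SE 0.091). edgeR's quasi-likelihood test gave a Benjamini-Hochberg adjusted p = 0.0233. Postn was the only one of 24076 genes to pass (0.00415%). DESeq2, run as an alternative, called 438 of the 21324 genes it adjusted (2.05%), 127 higher and 311 lower. In edgeR 4414 genes (18.3%) had an unadjusted p under 0.05, 2105 of them higher and 2309 lower, and the second smallest adjusted p was 0.236. Over all 18 alternatives the log2 difference of Postn lay between 1.04 and 1.15, but its call was lost in 9 of them, with an edgeR, Benjamini-Hochberg adjusted p of up to 0.285. These 9 were upper-quartile scaling, a fit of all 12 libraries, the replicate block, leaving out isolated libraries 1 and 3 together, and leaving out any one library other than isolated library 2. Without isolated library 2 edgeR called 1192 genes, 365 higher and 827 lower.

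Postn spans chromosome 3 from 54361109 to 54391037 on the plus strand of GRCm38 (mm10), and Per3, the gene with the smallest p among those lower in isolated VTA, chromosome 4 from 151003652 to 151044665 on the minus strand. Their promoters are shown because these genes head the list in each direction. Each sequence is the 250 bases before the RefSeq start nearest to the annotated one, read 5′ to 3′ on the gene's strand. Capitals in Postn mark a TATA box, TATAAA on the gene's strand, which was looked for after the sequence was seen. Capitals in Per3 mark D-boxes, TTATGNAA on either strand, the letters to which Dbp, Tef, Hlf and Nfil3 are known to bind.
Postn, chr3:54360857-54361106, GRCm38.p6, plus strand: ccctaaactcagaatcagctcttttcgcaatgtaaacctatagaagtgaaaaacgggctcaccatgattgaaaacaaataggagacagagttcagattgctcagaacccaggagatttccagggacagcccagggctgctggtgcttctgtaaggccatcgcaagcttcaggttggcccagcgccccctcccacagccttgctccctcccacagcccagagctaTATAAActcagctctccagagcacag
Per3, chr4:151044666-151044915, GRCm38.p6, minus strand: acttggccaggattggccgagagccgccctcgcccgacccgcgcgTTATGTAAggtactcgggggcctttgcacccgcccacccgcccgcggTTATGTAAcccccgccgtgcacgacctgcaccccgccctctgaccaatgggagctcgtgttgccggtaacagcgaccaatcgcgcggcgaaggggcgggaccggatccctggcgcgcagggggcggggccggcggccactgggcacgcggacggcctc
The TATA box of Postn begins 26 bases before the start, and 7.59% of all 32851 windows of this length in the RefSeq table hold one. Per3 holds 2 D-boxes, 205 and 158 bases before its start, and 3.07% of all windows hold at least 1. The search covered Postn, Per3 and the clock and glucocorticoid-induced genes Arntl2, Clock, Hlf, Klf15, Mt1, Nfkbia, Nr1d2, Tef and Tsc22d3. Among these 11 genes a D-box was found at Per3 alone, while the E-box CACGTG (6.02% of all windows) was found at Klf15 and Tef. The cyclic AMP element TGACGTCA (1.55%) was found at Hlf and the steroid receptor core ACANNNTGT (5.84%) at Mt1, both strands being searched for these 3 motifs.

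Per3, a period gene of the circadian clock, had 43.0, 46.7 and 42.9 CPM in the isolated and 64.1, 64.5 and 61.1 CPM in the group-housed libraries. The 2 groups did not overlap, and the log2 difference was -0.52 (SE 0.072). It did not pass, with an edgeR, Benjamini-Hochberg adjusted p = 0.236, a value that the other genes named by their small p share. DESeq2, edgeR without the filter on low counts and edgeR without isolated library 2 called it.

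The named genes of each direction were taken from the 12 with the smallest p among those of at least 1 CPM, so that groups standing apart belong to how they were picked. Groups also stayed apart in Atp6v0c, the proton channel subunit of the vesicular ATPase, at 63.7, 54.2 and 60.2 against 38.0, 33.6 and 40.8 CPM. Its 3 isolated values lay well above the others. C1ql1, a secreted organiser of synapses that oligodendrocyte precursors express as well, stood at 44.5, 36.7 and 35.3 against 14.8, 19.0 and 23.1 CPM. The lowest isolated value of C1ql1 exceeded the highest group-housed one, and the log2 difference was 1.03 (SE 0.17).

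Further genes of the 12 on the higher side did not pass either. Foxp2, a transcription factor, had 65.3, 55.4 and 66.8 against 42.8, 43.9 and 43.1 CPM, and the groups stood apart. Nrn1, a plasticity gene that encodes neuritin, had a log2 difference of 0.68 (SE 0.11), Vsnl1, a neuronal calcium sensor, 0.52 (SE 0.090) and Cadm2, a synaptic adhesion gene, 0.47 (SE 0.085). The phosphatase gene Acp1 (0.48, SE 0.081) and the noncoding Gm9866 (0.56) lay nearby in rank. Gm22317 (1.09, SE 0.15) and Gm26444 (1.12, SE 0.19) are annotated as small nuclear RNAs of 164 bases on chromosome 12 and may share reads with near-identical copies. Exons of Nrn1, Acp1 and Cadm2 overlap those of Fars2, Alkal2 and 1700010K23Rik on the other strand, and the strand setting of the counting is not given, so these 3 values may hold reads of both genes.

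On the lower side, Dchs1, a giant cadherin of planar cell polarity, had 29.3, 33.8 and 27.5 against 47.2, 45.8 and 44.0 CPM. The groups did not overlap, and its exons overlap those of Gm15645 on the other strand. Spaca6, whose exons include Mir125a, had a log2 difference of -0.93 (SE 0.15). The homeodomain factors Otp and Pax3, known from the hypothalamus and the dorsal midbrain, had -2.03 (SE 0.34) and -1.90 (SE 0.34) at means of at most 3.05 CPM in either group. Of the 12 lower genes 6 were not annotated as protein-coding: Gm47664, Gm43488, Gm37945, Gm38125, Gm48239 and Gm48582, with log2 differences from -1.70 to -1.10. Over all genes tested, groups did not overlap at 3038 genes with isolated VTA higher (12.6%) and at 3258 with it lower (13.5%).

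Th and Slc6a3 showed no such separation. Th had 177, 236 and 210.0 CPM in the isolated and 144, 192 and 331 CPM in the group-housed libraries, and Slc6a3 374, 526 and 437 against 278, 362 and 623 CPM. The highest and the lowest value of both genes came from group-housed libraries 3 and 1, with the isolated libraries between them.

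**Figure D2:**
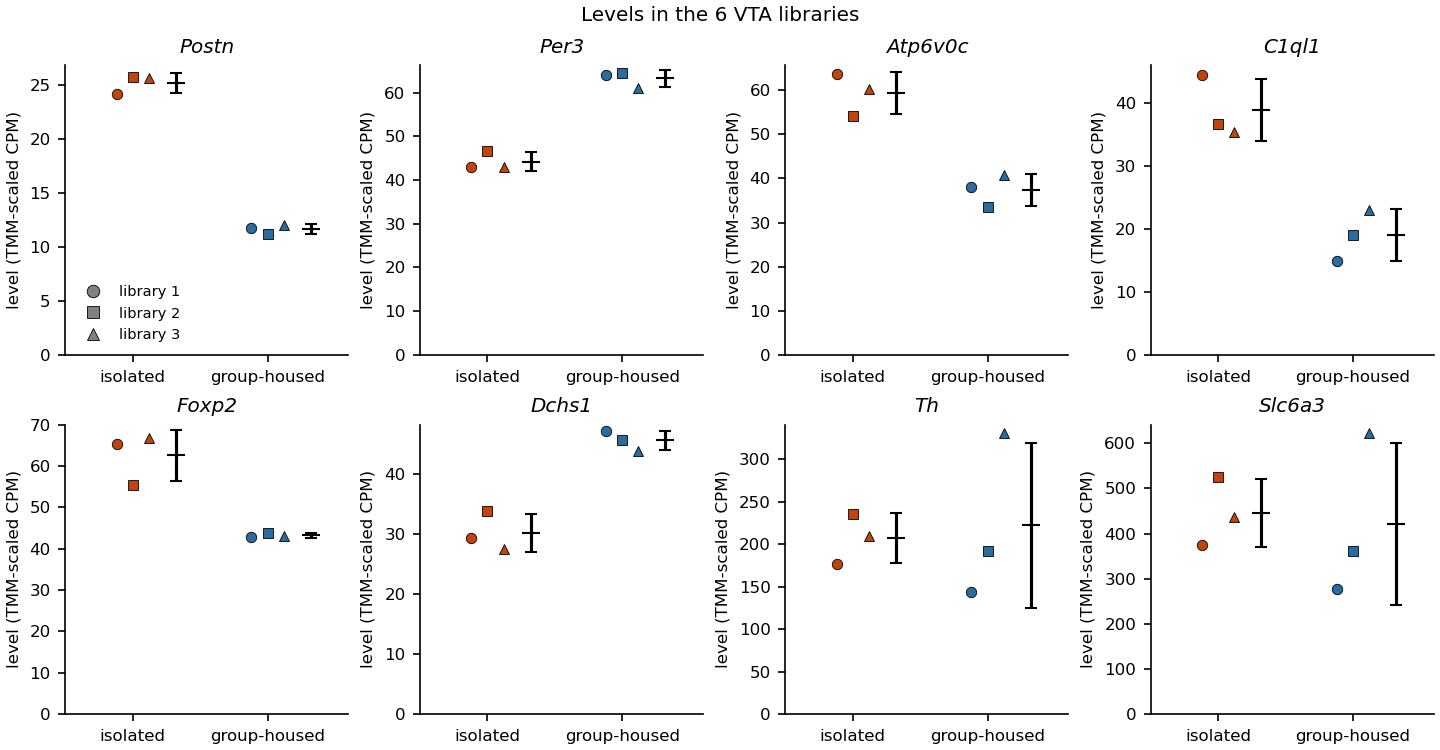
Levels (vertical axes, TMM-scaled CPM) of 8 genes in the 3 isolated and 3 group-housed VTA libraries; symbols give the library number, and the bar beside each group is the mean ± SD (n = 3). Postn lies at 24.2 CPM or more in isolated and at 12.1 CPM or less in group-housed VTA, whereas the groups overlap for Th and Slc6a3.

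Markers of neighbouring tissue differed between libraries, in part with housing. Ttr, the transthyretin gene that defines choroid plexus, had 233, 3.19 and 3555 CPM in isolated and 0.428, 0.305 and 1.07 CPM in group-housed VTA. The summed level of the 22 choroid plexus markers was 1079, 589 and 6525 CPM in isolated libraries 1, 2 and 3, and between 523 and 613 CPM in the group-housed ones. Isolated library 3 also had most RNA of forebrain neurons. Slc17a7 stood at 27.1, 9.66 and 266 against 3.48, 6.23 and 4.23 CPM, and the striatal receptor gene Adora2a at 4.52, 1.70 and 42.2 against 1.18, 1.69 and 1.65 CPM. The 20 cortical and hippocampal markers summed to 533, 454 and 1385 CPM in the isolated and 411, 420.1 and 412 CPM in the group-housed libraries. For the 18 striatal markers the sums were 585, 484 and 1298 and 484, 484 and 497 CPM. Ttr and Slc17a7 made up little of the group-housed sums of their lists, which thus held mostly RNA of other listed genes. By the sums, isolated library 2 lay within or close to the group-housed range in all 3 of these lists. Its Ttr and Slc17a7 values, however, lay above every group-housed one. The median log2 differences of choroid plexus, cortical and striatal markers were 2.31 (21 of 22 higher), 1.16 (16 of 20) and 0.54 (16 of 18). Without isolated library 3 they were 0.52, 0.33 and 0.14, and without isolated libraries 1 and 3 -0.21, 0.18 and 0.0065.

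Hypothalamic genes had lower levels in isolated VTA. The 17 hypothalamic and mammillary markers summed to 98.0, 192 and 45.9 CPM in the isolated and 236, 296 and 110.0 CPM in the group-housed libraries. Hcrt, the orexin gene, stood at 0.154, 0.338 and 0.210 against 4.17, 19.1 and 0.953 CPM, and Pmch at 0.231, 5.39 and 0.114 against 44.9, 62.7 and 3.51 CPM. Of the 14 markers tested, 2 were higher and 12 lower, with a median log2 difference of -0.87 (-0.56 without isolated library 3 and -0.36 without 1 and 3), against 49.8% of all genes higher and a median of -0.0013. Avp was at 0 in isolated library 2. Of 6 serotonin neuron markers tested 1 was higher and 5 lower, with a median of -0.69, and -0.40 without group-housed library 3. Tph2, which makes serotonin, had 0.553, 7.27 and 110.2 CPM in the group-housed libraries and 1.18, 0.969 and 1.14 CPM in the isolated ones, so group-housed library 3 held most of it. Fev, a factor that defines serotonin neurons, had 0.103, 0.0294 and 0 CPM in the isolated and 0.0178, 0.122 and 0.384 CPM in the group-housed libraries. Col1a1, a collagen gene of meningeal fibroblasts, had 11.4, 117 and 7.28 against 5.37, 10.3 and 13.3 CPM, the highest in isolated library 2, although 14 of the 20 fibroblast markers tested were lower (median -0.43, and 0.0020 without group-housed library 3). Of the remaining lists of neighbours, interpeduncular and habenular genes had 2 higher and 7 lower (median -0.42), ependymal genes 4 and 9 (-0.16, and 0.14 without group-housed library 1) and those of the red nucleus, oculomotor nucleus and substantia nigra reticulata 6 and 2 (0.68, and -0.051 without isolated libraries 1 and 3). The part of such tissue in the values of other genes was not tested.

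Traces of pituitary hormones differed as well. Gh, growth hormone, had 0.488, 0.352 and 0.933 CPM in the isolated libraries and 0 counts in all 3 group-housed ones, and Prl, prolactin, 1.10, 0.719 and 3.07 against 0.0714, 0.0611 and 0.0569 CPM. Pomc, counted among the neuropeptide genes as well, ran the other way, at 2.18, 2.22 and 2.13 against 25.6, 6.62 and 2.52 CPM. Group-housed libraries 1 and 2 were the highest, the same 2 in which Pmch was highest. The tissue that gave the Pomc reads was not tested. limma voom with quality weights called Gh beside Postn, and edgeR did not (Benjamini-Hochberg adjusted p = 0.236).

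**Figure D3:**
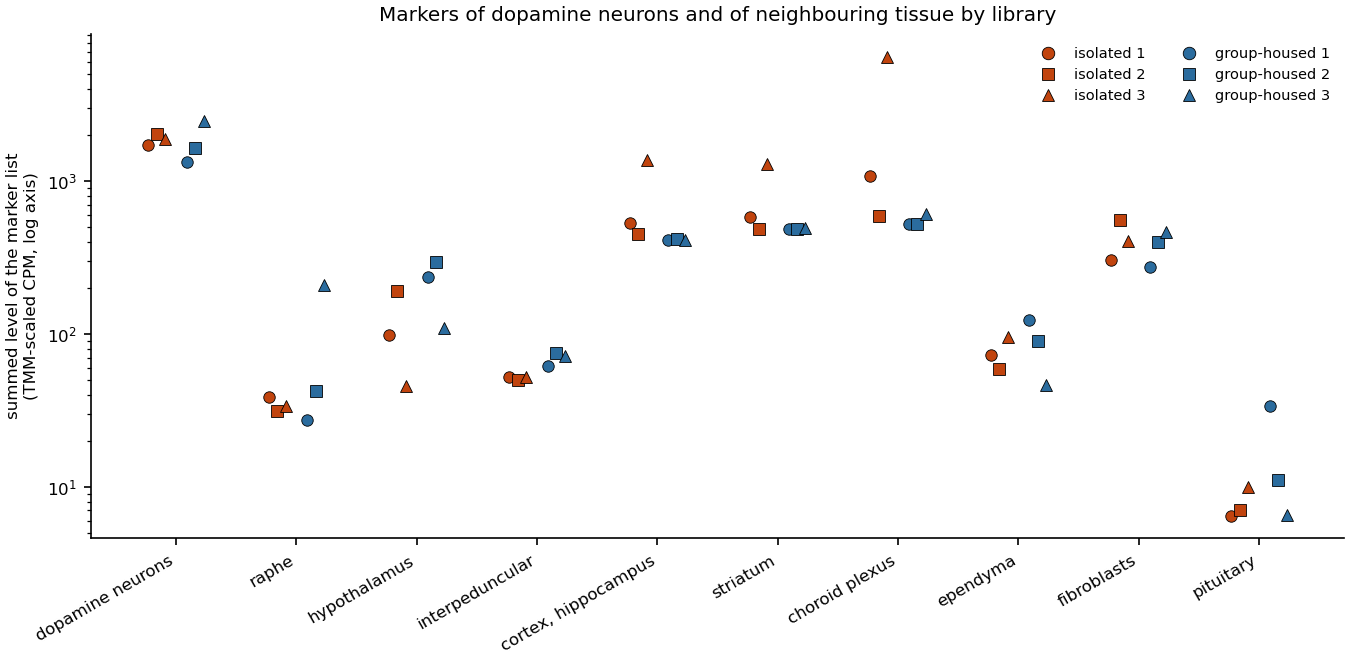
Summed level of the markers of dopamine neurons and of 9 neighbouring tissues (vertical axis, TMM-scaled CPM, log axis) in each VTA library, isolated in orange and group-housed in blue. Choroid plexus, cortical and striatal markers peak in isolated library 3, and raphe markers in group-housed library 3.

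Several classes of transcript not annotated as protein-coding had lower median levels in isolated VTA. Of 1919 tested TEC entries, a class that GENCODE keeps for transcribed regions awaiting experimental proof, 164 were higher and 1755 lower in isolated VTA, with a median log2 difference of -0.69. TEC entries took 0.245, 0.380 and 0.216% of the counts of isolated libraries 1, 2 and 3 and 0.520, 0.444 and 0.437% of those of the group-housed libraries, and the groups did not overlap. Sense intronic transcripts, which lie within introns of a gene, had a median of -0.74 (18 higher, 198 lower), antisense transcripts -0.40 (306 and 1194) and long intergenic noncoding RNAs -0.21 (372 and 782). Protein-coding genes had a median of 0.068 (9902 higher, 6012 lower). Small RNAs had 158 higher and 360 lower with a median of -0.36, but their share of the counts was not lower, at 2.24, 2.50 and 2.90% against 2.10, 2.13 and 2.36%, with overlap. With isolated library 2 as the only isolated library, the median of the TEC entries was -0.30 and that of sense intronic transcripts -0.33. Whether unspliced or nuclear RNA differed between the libraries was not tested, since the table holds 1 count per gene.

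Among long noncoding RNAs known to stay in the nucleus, Meg3, an imprinted RNA abundant in neurons, had 1262, 2301 and 1155 CPM in the isolated and 3068, 3020.4 and 3115 CPM in the group-housed libraries. Malat1, found in nuclear speckles, had 5521, 8085 and 5656 against 9968, 8674 and 10194 CPM. Isolated library 2 lay between the other isolated and the group-housed libraries for both. Miat (-0.53, SE 0.14) and Kcnq1ot1 (-0.74, SE 0.29), nuclear RNAs too, were lower by the log2 difference. A wider list of 15 structural RNA-like and long noncoding genes, not confined to nuclear RNAs, had 4 higher and 11 lower. Of all long intergenic noncoding RNAs tested, 372 were higher and 782 lower. Bc1, a short cytoplasmic RNA of dendrites, was an exception at 566, 229 and 945 against 212, 301 and 275 CPM, with isolated library 2 within the group-housed range. Without isolated libraries 1 and 3 the log2 difference of Meg3 went from -0.96 (SE 0.26) to -0.41, and that of Malat1 from -0.58 (SE 0.16) to -0.24. Miat and Kcnq1ot1 then stood at -0.21 and -0.18.

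Among coding genes, the shorter the exon length the higher was the median difference. Genes with up to 2 kb of exon had a median log2 difference of 0.11 (1479 of 2254 higher), those of 2 to 4 kb 0.084, those of 4 to 8 kb 0.061 and those over 8 kb 0.025 (1513 of 2711 higher). Without isolated libraries 1 and 3 the same 4 medians were 0.040, 0.032, 0.027 and 0.021. These are medians over genes of the same 6 libraries and carry no test.

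**Figure D4:**
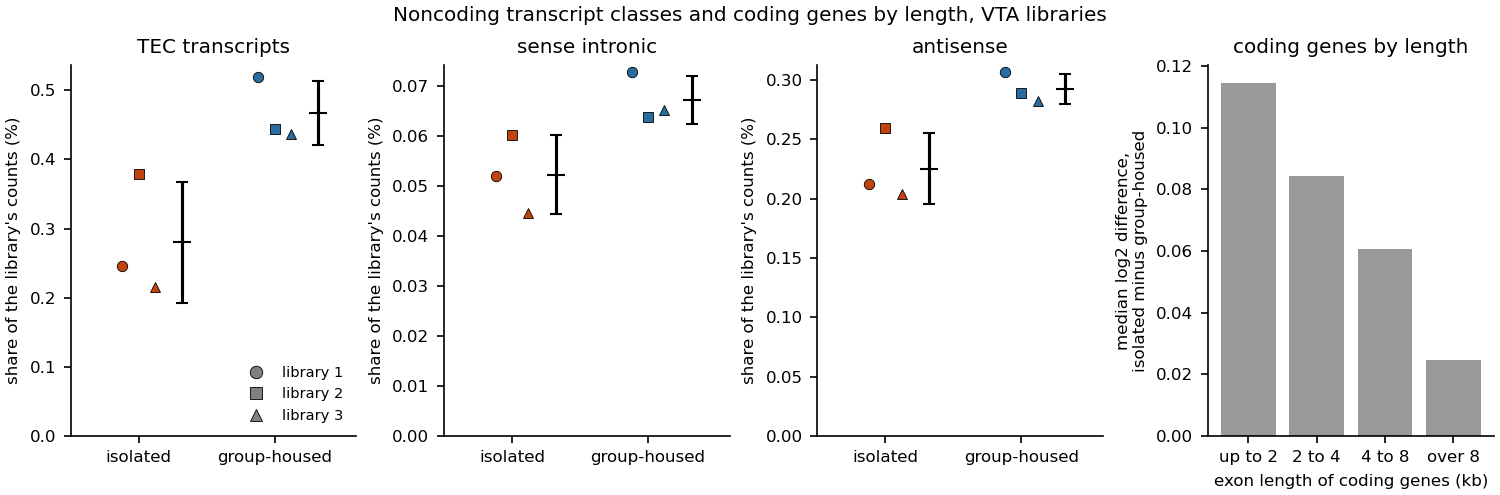
Share of each VTA library's counts on TEC, sense intronic and antisense transcripts (percent, symbols by library, bars mean ± SD, n = 3) and median log2 difference of coding genes in 4 classes of exon length (kb). All 3 isolated libraries lie below all 3 group-housed ones for each class of transcript, and the medians of coding genes run from 0.11 to 0.025.

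Dopamine genes as a group did not move one way. Of the 13 genes of dopamine synthesis and transport, 6 were higher and 7 lower, with a median log2 difference of -0.055, and that of the 13 tested receptor, breakdown and signalling genes was 0.074. Both depended on single libraries: without group-housed library 3 they were 0.28 and 0.27, and without isolated library 2 the latter was -0.050. The former was above 0 in 4 of 17 refits. Ddc, the decarboxylase, had 151, 196 and 178 against 126, 161 and 264 CPM, and the groups overlapped. The 15 transcription factors had 10 higher and a median of 0.30, which was 0.086 without isolated library 3. Nr4a2, an orphan nuclear receptor that dopamine neurons need, had 50.6, 65.4 and 53.5 CPM in the isolated and 28.4, 40.5 and 41.4 CPM in the group-housed libraries, which did not overlap, for a log2 difference of 0.62 (SE 0.16) that only DESeq2 called. Foxa2, a forkhead factor of the same neurons, had 8.22, 8.27 and 7.37 against 3.16, 4.66 and 7.30 CPM, and the groups barely parted. Calb1, a calcium-binding protein of VTA dopamine neurons, had 104, 180.1 and 117 against 157, 174 and 130.4 CPM, and the groups overlapped.

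GABA neuron genes, with 8 higher and 8 lower, varied within the isolated group. Gad1 had 331, 103 and 297 CPM in the isolated and 245, 235 and 269.5 CPM in the group-housed libraries, so that isolated library 2 lay far below the rest. Slc32a1, which loads GABA into vesicles, was lowest in the same library (56.0, 27.2 and 45.4 against 43.3, 41.8 and 64.8 CPM), as was Gad2. Slc17a6, the vesicular glutamate transporter of midbrain neurons, had 609, 697 and 376 against 471, 499 and 424 CPM, with isolated library 3 the lowest. The 10 tested genes of tegmental glutamate neurons had a median of 0.17, and -0.48 without isolated libraries 1 and 3.

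Neuropeptide genes divided by gene. Ucn, urocortin, a peptide of the stress system made by the nearby Edinger-Westphal nucleus, had 7.50, 8.13 and 18.1 CPM in the isolated and 2.68, 2.32 and 1.49 CPM in the group-housed libraries. Cartpt, made by the same cells among others, had 228, 249 and 334 against 107, 98.8 and 44.7 CPM. Both kept the groups apart, with log2 differences of 2.38 (SE 0.40) and 1.70 (SE 0.37), and neither passed. DESeq2 called both, and edgeR without isolated library 2 called Ucn. Without isolated libraries 1 and 3 the differences were 1.92 and 1.59. Cck, cholecystokinin, which many VTA dopamine neurons make, had 36.8, 38.7 and 79.7 against 21.2, 24.9 and 29.5 CPM, the highest in isolated library 3. Over the 22 peptide genes tested, 13 were higher and 9 lower with a median of 0.030, and Trh, Gal and Pomc were among the 9.

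Genes that glucocorticoids are known to induce lay higher in isolated VTA, where all 25 tested had a log2 difference above 0 against 49.8% of all genes, and 15 of them had groups that stood apart, against 12.6%. Protein-coding genes alone had larger shares than all genes. Of 15914 tested, 9902 were higher, and in 2728 the groups stood apart on the higher side. The median was 0.29, and 0.27 and 0.18 without isolated library 3 and without 1 and 3. No member passed, and the list was drawn up with earlier results of these data known. Nfkbia, the inhibitor of NF-kappa-B, had 23.8, 22.3 and 25.9 CPM in the isolated and 16.7, 18.3 and 18.2 CPM in the group-housed libraries, and Tsc22d3, or GILZ, 186, 154 and 166 against 116, 133 and 139 CPM. In both genes the groups stood apart. Sgk1, a kinase of salt and stress signalling, had 83.0, 70.6 and 171 against 45.4, 44.6 and 47.7 CPM, with isolated library 3 far above the other 2. Its log2 difference of 1.24 (SE 0.36) was 0.74 without that library. Klf15, a factor of metabolic genes, differed by 0.37 (SE 0.10), while the receptor gene Nr3c1 itself had 164, 154 and 169 against 173, 157 and 139 CPM.

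Immediate early genes, which neurons transcribe soon after activity, had 27 of 32 members higher and a median of 0.38, which was 0.26 without isolated library 3 and 0.12 without 1 and 3. None passed, and the groups stood apart in 8 on the higher side and in 0 on the lower. Of 15914 protein-coding genes 9902 were higher, 2728 had groups apart on the higher side and 1127 on the lower. Fos itself had 16.6, 13.8 and 10.4 against 27.1, 6.82 and 6.89 CPM, highest in group-housed library 1. Egr3 had 3.57, 1.81 and 20.9 against 0.838, 1.10 and 0.811 CPM, so that its difference lay mostly in isolated library 3. Fosl2, a partner of Jun, had 14.3, 12.1 and 19.2 against 11.4, 9.81 and 8.04 CPM, and Dusp6, which shuts off ERK, 26.7, 23.2 and 32.5 against 19.1, 20.3 and 21.2 CPM, and in these 2 the groups did not overlap.

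In the clock list the groups stood apart on the lower side in 2 of 25 genes, Per3 and Arntl2, and on the higher side in 4, among them Per2, Npas2 and Hlf. These shares lie near the 13.5% and 12.6% of all genes. Among 15914 protein-coding genes the groups stood apart on the lower side in 1127 and on the higher side in 2728. In all, 17 were higher and 8 lower, with a median of 0.068 that was -0.0027 with upper-quartile scaling. Arntl2, a partner of Clock, had 7.17, 8.90 and 6.88 against 15.2, 11.3 and 10.7 CPM and a log2 difference of -0.69 (SE 0.18). Hlf, whose protein binds D-boxes, had 49.5, 49.5 and 56.9 against 37.6, 41.6 and 41.0 CPM, a difference of 0.37 (SE 0.086) in the other direction. The groups overlapped for Dbp and Tef, which bind D-boxes too, the latter at 329, 283 and 379 against 305, 288 and 262 CPM, and for Per1 (20.2, 19.9 and 30.4 against 22.6, 22.5 and 17.7 CPM), while Per2 (21.1, 20.8 and 36.8 against 17.5, 19.0 and 18.4 CPM) was highest in isolated library 3. Clock, which drives the loop, had 176, 191 and 186 against 178, 175 and 163 CPM.

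Genes of energy supply and protein turnover lay slightly higher in isolated VTA, and none passed. Of 75 nuclear-encoded subunits of the respiratory chain 74 were higher with a median of 0.27, and in 36 the groups stood apart. Of 18 subunits of the vesicular proton pump, which acidifies synaptic vesicles and lysosomes, all were higher with a median of 0.27, and in 14 the groups stood apart. Of 31 proteasome subunits all were higher (median 0.18, 20 apart), of 79 cytosolic ribosomal proteins 76 (median 0.19, 55 apart) and of 75 mitochondrial ribosomal proteins 69 (median 0.17, 36 apart). Beside these shares stand 12.6% of all genes, and 2728 of 15914 protein-coding genes, with groups apart on the higher side. Without isolated libraries 1 and 3 the 5 medians were 0.12, 0.13, 0.085, 0.10 and 0.080. Atp5e, a subunit of ATP synthase, had 76.3, 62.3 and 72.2 against 50.1, 50.3 and 53.1 CPM. Atp6v1b2, a catalytic subunit of the pump, had 661, 575 and 672 against 513, 495 and 518 CPM, and the proteasome subunit gene Psmb3 57.1, 54.4 and 61.7 against 45.7, 49.1 and 50.4 CPM. Rps2, which has many processed copies and is therefore uncertain, had 108, 86.3 and 141 against 67.2, 61.7 and 57.0 CPM. In all 4 of these genes every isolated value lay above every group-housed one. The median over coding genes of up to 2 kb of exon, to which many small subunits belong, was 0.11 as given above.

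Synaptic and channel genes lay higher by a like amount, and none passed. Of 15914 protein-coding genes 9902 were higher, and groups stood apart on the higher side in 2728 and on the lower in 1127. Of 42 genes of presynaptic release 41 were higher, with a median of 0.23, and 0.094 without isolated libraries 1 and 3. In 16 of them the groups stood apart on the higher side and in 0 on the lower. Dnm1, the dynamin of vesicle recycling, had 627, 489 and 648 against 370.4, 377 and 434 CPM and a log2 difference of 0.58 (SE 0.12). Snap25, a fusion protein of the release machinery, had 2182, 1642 and 1988 against 1273, 1296 and 1669 CPM, where isolated library 2 lay below group-housed library 3. Of 44 glutamate receptor and scaffold genes 37 were higher, with a median of 0.24 that was 0.10 without isolated library 3. In 13 the groups stood apart on the higher side and in 2 on the lower. Summed levels of this list were 4586, 4594 and 6582 CPM in the isolated and 4461, 4418 and 4216 CPM in the group-housed libraries, highest in isolated library 3, which also held most of the cortical markers. Their part in it was not tested. The list includes Neto2, an auxiliary protein of kainate receptors, at 95.4, 102 and 120.4 against 75.6, 80.8 and 77.5 CPM. Grik4, a kainate receptor subunit, ran against them at 23.8, 23.2 and 20.7 against 28.2, 29.2 and 29.1 CPM. Of 21 GABA and glycine receptor genes 16 were higher (median 0.19), with Gabrb2 at 252, 229 and 257 against 198, 167 and 204 CPM. In 10 of the 21 the groups stood apart on the higher side and in 0 on the lower. Of 42 voltage-gated channel genes 31 were higher (median 0.16, 0.099 without isolated library 3 and 0.039 without 1 and 3), among them Kcnh7 at 0.34 (SE 0.091). Groups stood apart in 6 of these 42 on the higher side and in 2 on the lower, shares near those of all coding genes.

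**Figure D5:**
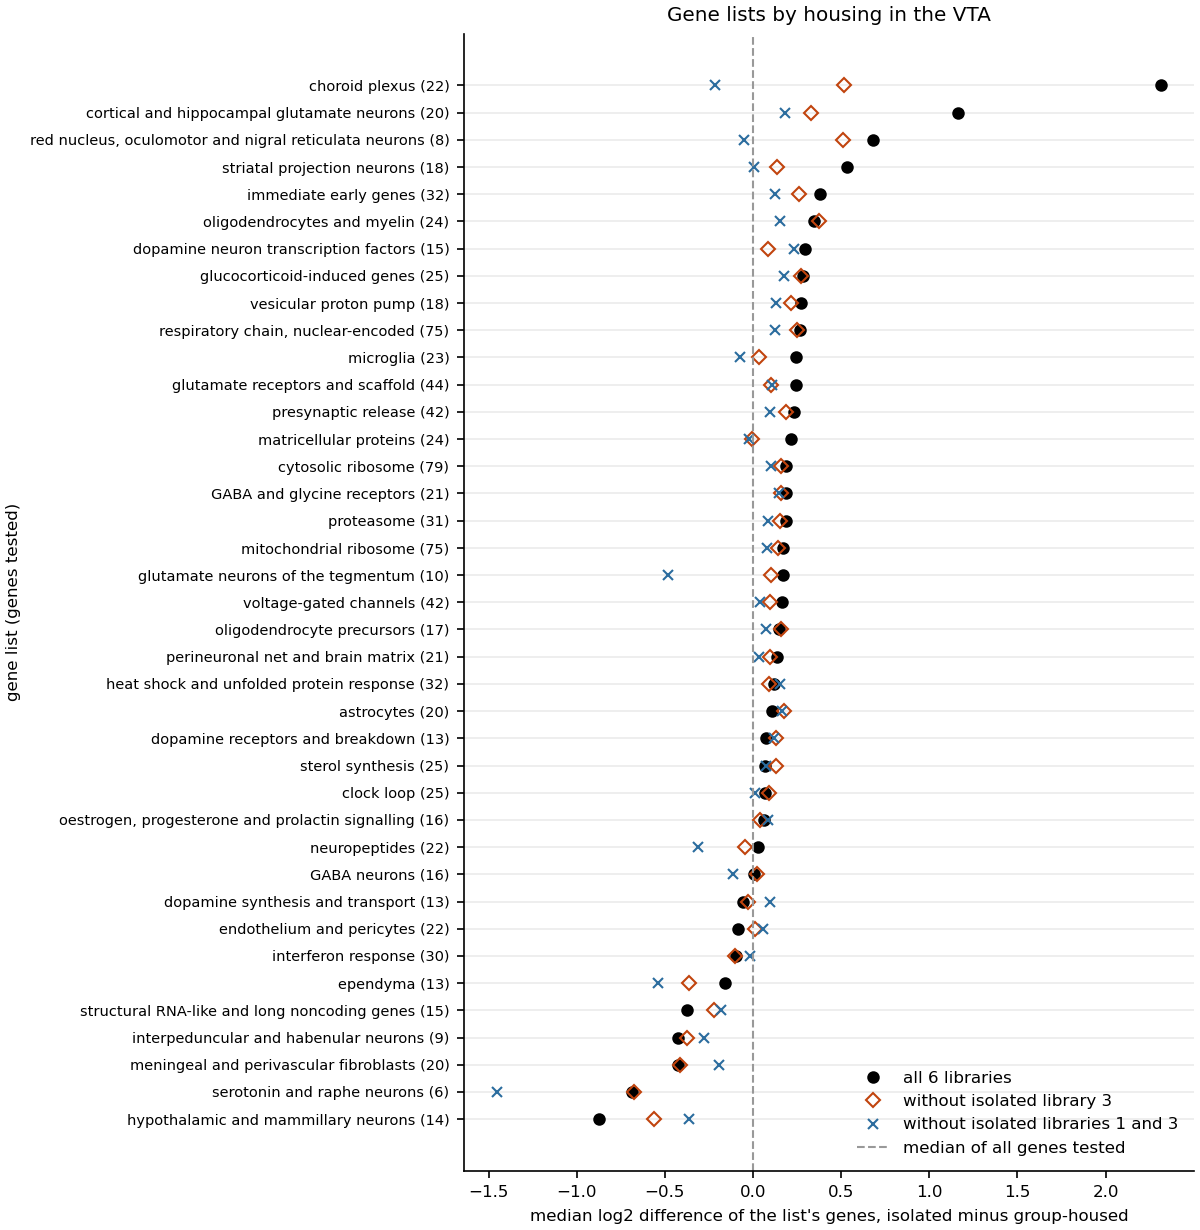
Median log2 difference, isolated minus group-housed (horizontal axis), of the tested genes in 39 lists, with all 6 libraries (filled), without isolated library 3 (diamonds) and without isolated libraries 1 and 3 (crosses); the dashed line is the median of all genes. The median of choroid plexus markers goes from 2.31 to -0.21 when these libraries are left out, while that of glucocorticoid-induced genes stays between 0.18 and 0.29.

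Myelin genes lay higher in the isolated libraries and in group-housed library 3. Of 24 oligodendrocyte and myelin genes 22 were higher, with a median of 0.34, and Mbp, the myelin basic protein gene, had 5377, 4314 and 4404 against 2932, 2883 and 5010.5 CPM. Tspan2, a tetraspanin of oligodendrocytes, kept the groups apart at 334, 239 and 259 against 193, 176 and 223 CPM. Astrocyte genes had 16 of 20 higher and a median of 0.11, which was 0.18 without isolated library 3. Slc1a2, the astrocytic glutamate transporter, had 1853, 1810.5 and 2266 against 1600.1, 1608 and 1636 CPM, and Gfap 181, 237 and 206 against 178, 270.1 and 195 CPM. All 23 microglial genes tested were higher with a median of 0.24, which was 0.035 without isolated library 3 and -0.074 without 1 and 3. C1qa, a complement gene of microglia, overlapped between groups at 38.1, 33.8 and 50.5 against 28.7, 33.2 and 36.7 CPM. Endothelial and pericyte genes had 9 higher and 13 lower, and Pdgfrb, the receptor that marks pericytes, had 29.5, 36.8 and 24.6 against 39.0, 41.1 and 49.4 CPM. Precursor genes had 14 of 17 higher (median 0.14), C1ql1 among them. No member of these glial and vascular lists passed, and 9902 of 15914 protein-coding genes were higher.

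Other matricellular genes, secreted proteins that modulate the matrix as Postn does, did not pass. Of the 24 matricellular genes tested, Postn included, 15 were higher, with a median of 0.21 that was -0.0041 without isolated library 3. Its close relative Tgfbi had 9.92, 7.99 and 13.2 against 8.31, 8.32 and 10.2 CPM, with overlap. Thbs3, a thrombospondin, had 9.66, 10.7 and 14.6 against 19.2, 17.1 and 13.6 CPM. The part of meningeal or choroid tissue in the level of Postn was not tested.

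Of the heat shock and unfolded protein response genes 30 of 32 were higher, with a median of 0.12. In 10 the groups stood apart on the higher side, against 12.6% of all genes and 2728 of 15914 protein-coding genes. Interferon response genes had 10 higher and 20 lower (median -0.095), and genes of brain matrix and perineuronal nets 15 and 6 (0.14). Sterol synthesis genes had 20 and 5 (0.070) and sex hormone and prolactin signalling genes 12 and 4 (0.061), and with upper-quartile scaling these medians were -0.0029 and -0.011. Srd5a1, which reduces progesterone and testosterone, had 14.1, 12.5 and 14.0 against 10.8, 9.49 and 9.82 CPM. The oestrogen receptor gene Esr1 had 8.12, 8.03 and 8.57 against 23.5, 15.3 and 7.53 CPM, with group-housed libraries 1 and 2 the highest, the same 2 in which Pmch was highest. Dnajb1, a heat shock cochaperone, had 72.1, 76.2 and 74.3 against 65.7, 53.8 and 54.6 CPM.

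Whether the effect of housing differs between the VTA and BLA punches was tested as the difference between the 2 effects in 1 fit of all 12 libraries. edgeR with Benjamini-Hochberg adjustment called 0 of 25232 genes (0%), 3451 had an unadjusted p under 0.05, and DESeq2 called 135. For Postn the VTA effect exceeded the BLA effect by 1.13 (SE 0.38) on the log2 scale (edgeR, Benjamini-Hochberg adjusted p = 0.332), its BLA difference being 0.0076 (SE 0.28). For Per3 the difference of effects was -0.73 (SE 0.12), edgeR adjusted p = 0.163, with a BLA difference of 0.25 (SE 0.082). C1ql1, with 1.55 (SE 0.29), did not pass either. The effect on Atp6v0c was about as large in BLA (0.61, SE 0.20) as in VTA (0.66, SE 0.098). Region and sex cannot be told apart in this test as well.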

How the data were processed

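The unit was raw counts per gene symbol, in a table the authors deposited for all 12 libraries. Per the submitters' processing notes, cutadapt, TopHat2, HTSeq and mm10 were used. The sources used here do not give versions, the strand setting or the gene annotation. Of 54429 entries, 4 with a repeated, date-like name and 3 ribosomal RNA loci were left out. The 6 VTA libraries were fitted with edgeR 4.0.16 (R 4.3.3) by its quasi-likelihood test, after filterByExpr (at least 10 counts, 15 in total) and TMM scaling, with Benjamini-Hochberg adjustment and a threshold of 0.05. Region and the difference of effects came from 1 fit of all 12 libraries. Levels per length used exon lengths of GENCODE vM21 (GRCm38). DESeq2 1.42.0, limma 3.58.1 voom, other scalings and filters, a replicate block and left-out libraries were alternatives. The edgeR fits of housing, region and the difference of effects were tested on simulated counts, and the other steps were not.

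Named genes were Th, Slc6a3, Postn, Per3, called genes, the 12 smallest p per direction at a mean of at least 1 CPM, and up to 3 members per list by p and 3 by level; the further members named were chosen after their values were seen. Some genes that the rule took are not reported here. The members, lists and rules were chosen with earlier results of these data known. Promoters are RefSeq's (GRCm38.p6). The replicate numbers were not taken as pairs, although the correlations given below cannot exclude a pairing.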

Additional observations from a re-analysis of the deposited data

How the results depend on the processing

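The number of genes called by housing depended on the processing. Against 1 gene (Postn, higher), DESeq2 called 438 (127 higher, 311 lower), voom with quality weights 2 (both higher, Postn and Gh), edgeR without a filter 17 (11 higher, 6 lower), and upper-quartile scaling 0. Leaving out 1 library gave 0 to 1192 calls (0 to 365 higher, 0 to 827 lower), and all calls in that range came without isolated library 2. Leaving out isolated libraries 1 and 3 gave 0. The fit of all 12 libraries called 1 gene, the Y-linked Eif2s3y, and not Postn. Eif2s3y had a mean of only 0.123 CPM in group-housed VTA, against 55.9 CPM in group-housed BLA. The replicate block called 0 genes. Same-numbered libraries had correlations of -0.057, -0.017 and -0.027, so the numbers were not taken as pairs. For the difference between VTA and BLA effects DESeq2 called 135 genes and edgeR without a filter 1 (Eif2s3y). For region, a minimum log2 difference of 1 left 2274 higher and 1900 lower. All 75 genes whose log2 differences were followed kept their direction in all 17 refits, and 46 of them were called in at least 1. These genes were picked from the same data, many by a small p, so a kept direction was likely beforehand. Th and Slc6a3 were not among the 75. The log2 difference of Th went from -0.098 to 0.092 without isolated libraries 1 and 3. The median of 24 of the 40 lists kept its sign in every refit, and 16 changed sign in at least 1. Upper-quartile scaling moved the median of all genes to -0.073. Totals were 40991098 to 69270051 counts, and with 3 libraries per group 1 library can decide a call, as the range without single libraries shows.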
